A study of Sus scrofa with 23 samples.

Results

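The cytosolic ribosomal protein genes encode the proteins of the ribosome that works in the cytoplasm. They were chosen by name, as the genes whose pig symbol is RPL or RPS followed by a digit, or is RPSA, RPLP0, RPLP1 or RPLP2, leaving out the RPS6K kinases and RPS19BP1. This gave 51 of the 25880 genes in the table, 26 named for the large subunit (RPL) and 25 for the small subunit (RPS). The rule reads only the symbols. A further 6 symbols that meet the rule (RPL13A, RPS26, RPL22, RPS14, RPL36 and RPS10) were matched to no gene of the table by their identifier.

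RNA was measured by poly-A selected RNA sequencing in the prefrontal cortex of adolescent female Danish slaughter pigs weighing 20 kg. Each pig was awake when it received an intravenous injection of saline or of psilocybin at 0.08 mg/kg, was killed with pentobarbital 1 day or 1 week afterwards, and gave 1 library of snap-frozen brain. Psilocybin is a tryptamine whose metabolite psilocin activates serotonin receptors, and the design compares it with saline at each time. The libraries number 5 for saline at 1 day and 6 each for psilocybin at 1 day, saline at 1 week and psilocybin at 1 week. The series states 6 animals for every group, while the deposited counts hold 5 saline libraries of 1 day. The labels divide the animals into batch 1 (11 libraries) and batch 2 (12 libraries), with both batches in all 4 groups, and do not say what a batch stands for. Animal 1 of a group is the one with the lowest number in its label, and so on upwards, so that saline animals 1 and 2 of 1 day and animals 1 to 3 of the other groups belong to batch 1.

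A ribosome joins a small subunit, which binds the messenger RNA and decodes it, to a large subunit, which forms the peptide bond. Ribosomal proteins are made in near-equal amounts and assembled onto ribosomal RNA in the nucleolus, so their genes are known to be expressed together in most tissues. Their messenger RNAs are short and abundant and begin with a run of pyrimidines, the 5′ terminal oligopyrimidine (TOP) tract, through which growth signals of the mTOR kinase and the binding protein LARP1 control their translation. In neurons, ribosomal protein messenger RNAs are also found in axons and dendrites. Translation itself was not measured here.

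Assigned counts ranged from 9504421 to 18654626 per library. The cortical markers SLC17A7 (a glutamate transporter of excitatory neurons), SNAP25, CAMK2A, GFAP of astrocytes and MBP of myelin were present in every library, with means of 1097, 2721, 3686, 2499 and 5203 CPM (counts scaled by the library's TMM-adjusted total, as edgeR gives them), and TTR of choroid plexus averaged 1.97 CPM. Single libraries stood apart in the ribosomal protein genes: animal 5 of saline at 1 day (here the high 1 day saline animal), animal 1 of saline at 1 week (the high 1 week saline animal) and, less far, animal 6 of psilocybin at 1 week (the high psilocybin animal). The comparisons of the ribosomal protein genes, and the 1 day and batch comparisons of the gene lists, are given with and without the libraries that moved them. Nothing in the labels goes against their group.

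Per kilobase of the exons listed in the table, the ribosomal protein genes were abundant. The median over the 50 genes that passed the filter on low counts was 95.6 CPM per kilobase, beside 5.78 over all 15049 genes tested. The small subunit genes had a median of 124 CPM per kilobase and the large subunit genes 93.4. The highest were RPS28 at 484, RPS16 at 386, RPL11 at 352, RPS18 at 334 and RPS23 at 260 CPM per kilobase. RPL11 is a large subunit protein that also binds MDM2, and the other 4 belong to the small subunit. The listed exons of the 51 genes summed to between 325 and 6013 bases, with a median of 1810, and RPS28 had the shortest at 325 bases. Across genes, the 17 tested genes with the shortest exon length (325 to 1364 bases) had a median of 178 CPM per kilobase and the 17 with the longest (2727 to 6013 bases) had 57.1. Part of this order can come from exon length itself, since the listed length is that of all annotated exons and not of the transcript present, which was not tested.

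**Figure D1:**
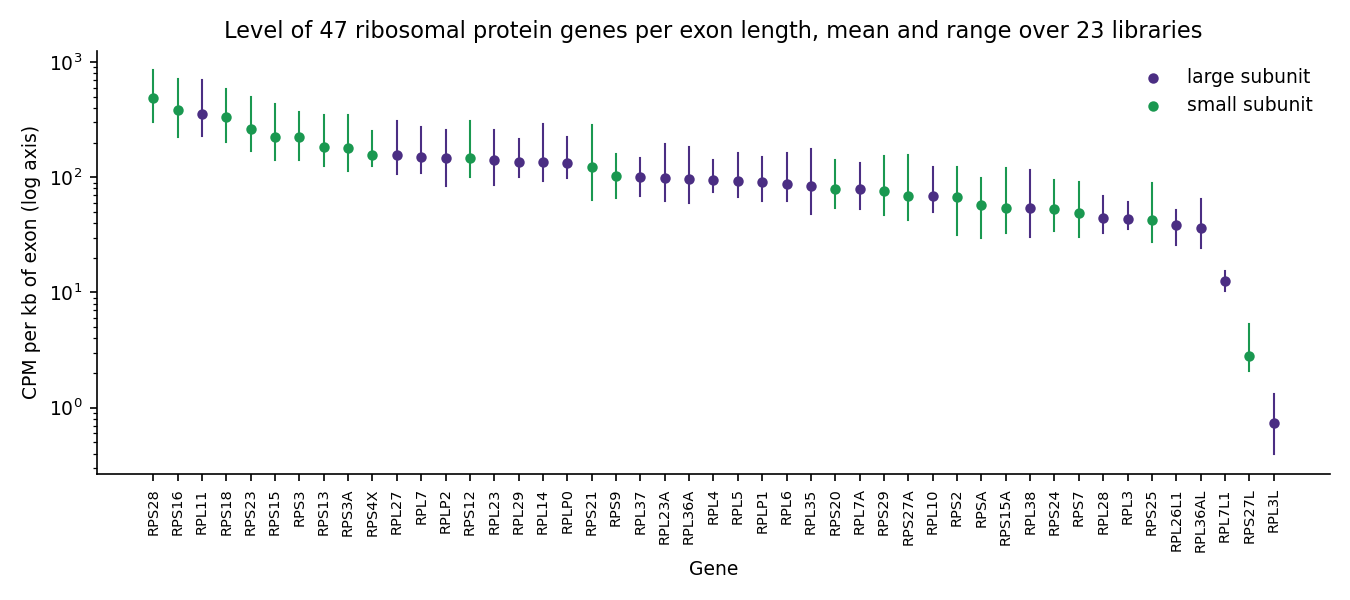
Level of each of 47 detected ribosomal protein genes in CPM per kilobase of exon on a log axis, with genes along the horizontal axis ordered by level, points for the mean and lines for the range over 23 libraries. Most genes lie near the median of the 50 detected genes, 95.6, and RPL7L1, RPS27L and RPL3L stand far below it.

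The lowest levels per kilobase belonged to paralogs. RPL3L, the form of RPL3 known from heart and skeletal muscle, averaged 0.740 CPM per kilobase against 43.7 for RPL3. RPS27L, known as a p53 target, averaged 2.82 against 69.1 for RPS27A, a gene for a ubiquitin fusion protein that shares its number but is not its paralog. RPL7L1, a nucleolar relative of RPL7, averaged 12.7 against 151. RPL36AL averaged 36.6 against 95.8 for the X-linked RPL36A, and RPL26L1 averaged 38.3. The order of RPL36AL and RPL36A rests on listed exon length, 1807 bases against 544. Before division by length RPL36AL was the higher in every library, as in saline animal 5 of 1 day (116 against 100 CPM).

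RPL10L, an intronless copy of RPL10 known from testis, had 0 counts in all 23 libraries and was the only gene of the 51 that did not pass the filter. It lies on chromosome 1 at 176603248 to 176603892 (susScr11, minus strand, 1 exon of 645 bases), and RPL10 on the X chromosome averaged 68.9 CPM per kilobase. Near-identical copies exist for many ribosomal protein genes, and only primary alignments were counted, so a read that matches several copies counts for just one place and the counts of single genes are uncertain. The spans of 31 of the 51 genes overlap another gene of the table. For 19 the overlap is on their own strand and for 18 on the opposite one, and counting ignored strand.

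The high 1 day saline animal had the highest share of counts in the ribosomal protein genes. The 51 genes together took 0.990% ± 0.217 (SD, n = 23) of assigned counts over all libraries. In the saline animals of 1 day the shares were 1.03%, 1.03%, 0.742%, 0.785% and 1.65% in animals 1 to 5. The lowest, median and highest shares were 0.713%, 0.965% and 1.08% in psilocybin at 1 day, 0.794%, 0.960% and 1.42% in saline at 1 week, and 0.831%, 0.941% and 1.25% in psilocybin at 1 week. All 4 groups overlap, and the highest shares at 1 week belonged to the high 1 week saline animal and the high psilocybin animal.

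Group means of the share were 1.05% ± 0.361 (SD, n = 5) for saline and 0.938% ± 0.134 (SD, n = 6) for psilocybin at 1 day, and 0.996% ± 0.228 (SD, n = 6) for saline and 0.988% ± 0.163 (SD, n = 6) for psilocybin at 1 week. The differences between them were smaller than the spread within the saline groups. Without the 3 libraries standing apart the same means were 0.898%, 0.938%, 0.911% and 0.935%, so that saline at 1 day went from the highest mean to the lowest.

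**Figure D2:**
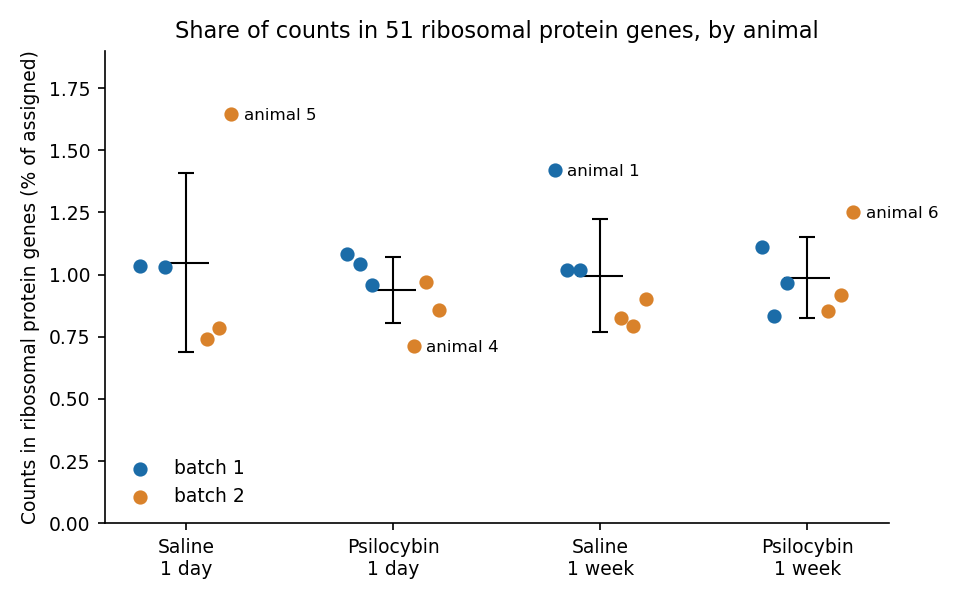
Share of assigned counts in the 51 ribosomal protein genes, in percent, for each animal by treatment and time. Points are animals coloured by batch, and black lines are the group mean and SD; the high 1 day saline animal stands at 1.65%, and psilocybin animal 4 of 1 day is lowest at 0.713%.

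The genes went up and down together from animal to animal. After group and batch means were removed, each gene was correlated with the mean of the other tested ribosomal protein genes over the 23 libraries, on log2 CPM. The median Pearson r was 0.9747, and 44 of 50 genes had an r over 0.9. These points share the libraries and their scaling, and no test is given. Without the 3 libraries the median r was 0.898 and 24 genes were over 0.9. Within batch 1 the median was 0.953 and within batch 2 it was 0.984.

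RPS24 had the r closest to 1, at 0.993, followed by RPS20, RPS7 and RPS25, all of the small subunit. RPS24, on chromosome 14 at 80473928 to 80481209 (susScr11, plus strand), overlaps no other gene of the table. Its saline values at 1 day were 263, 226, 159, 166 and 409 CPM in animals 1 to 5. Its lowest, median and highest values were 146, 221 and 273 CPM in psilocybin at 1 day, 176, 215 and 354 in saline at 1 week, and 177, 207 and 279 in psilocybin at 1 week. The high 1 day saline animal was above every other library, the high 1 week saline animal was next, and the 4 groups overlapped.

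RPS21, a small subunit protein, varied most. Its SD between animals, with group and batch means removed, was 0.49 on the log2 scale, where the median ribosomal protein gene had 0.37 and the median of all tested genes 0.22. RPL35 followed at 0.48. In the saline animals of 1 day RPS21 was at 48.7, 46.2, 29.5, 36.1 and 109 CPM, with animal 5 far above the others. RPS21 shares part of its span with CABLES2 on the opposite strand, so its counts can hold reads of that gene.

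Of the 50 tested genes, 48 had an SD above the median of all genes. The 2 below it were RPL7L1 at 0.15 and RPL3 at 0.20. RPL3 and RPL4 (0.24), both large proteins of the large subunit, varied little beside the others. Measured relative to the mean of the other ribosomal protein genes, the SD had a median of only 0.10, with a range from 0.04 to 0.51.

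RPL3L followed the others least, with an r of 0.22, and its values of 1.72, 1.66, 0.826, 0.672 and 1.56 CPM in the saline animals of 1 day rest on few reads. It had between 7 and 29 counts per library, so the depth allows no firm statement on it. The next were RPL7L1 at 0.70, RPS2 at 0.80 and RPL26L1 at 0.80. RPL7L1, which is not a structural protein of the mature ribosome, ran from 48.0 to 61.7 CPM over the saline animals of 1 day. In the same animals RPL7 ran from 225 to 546 CPM. RPS2, of the small subunit, was at 348, 462, 297, 185 and 710.2 CPM in saline animals 1 to 5 of 1 day, and it overlaps 6 other genes of the table, among them NDUFB10 and TBL3.

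The stalk proteins followed the rest, and the laminin receptor followed less closely than most. RPLP0 (uL10), RPLP1 and RPLP2 form the stalk of the large subunit that recruits elongation factors. RPLP0 was at 271, 313, 223, 224 and 493 CPM in saline animals 1 to 5 of 1 day, and in psilocybin at 1 day its lowest, median and highest values were 216, 288 and 330 CPM. RPSA, a small subunit protein also known as the laminin receptor, was at 215, 252.3, 156, 132 and 383 CPM in the same saline animals and at 116, 228 and 250.4 CPM in psilocybin at 1 day. Each was highest in the high 1 day saline animal, and the treatments overlapped. The r with the other genes was 0.95 for RPLP0, RPLP1 and RPLP2 and 0.89 for RPSA.

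**Figure D3:**
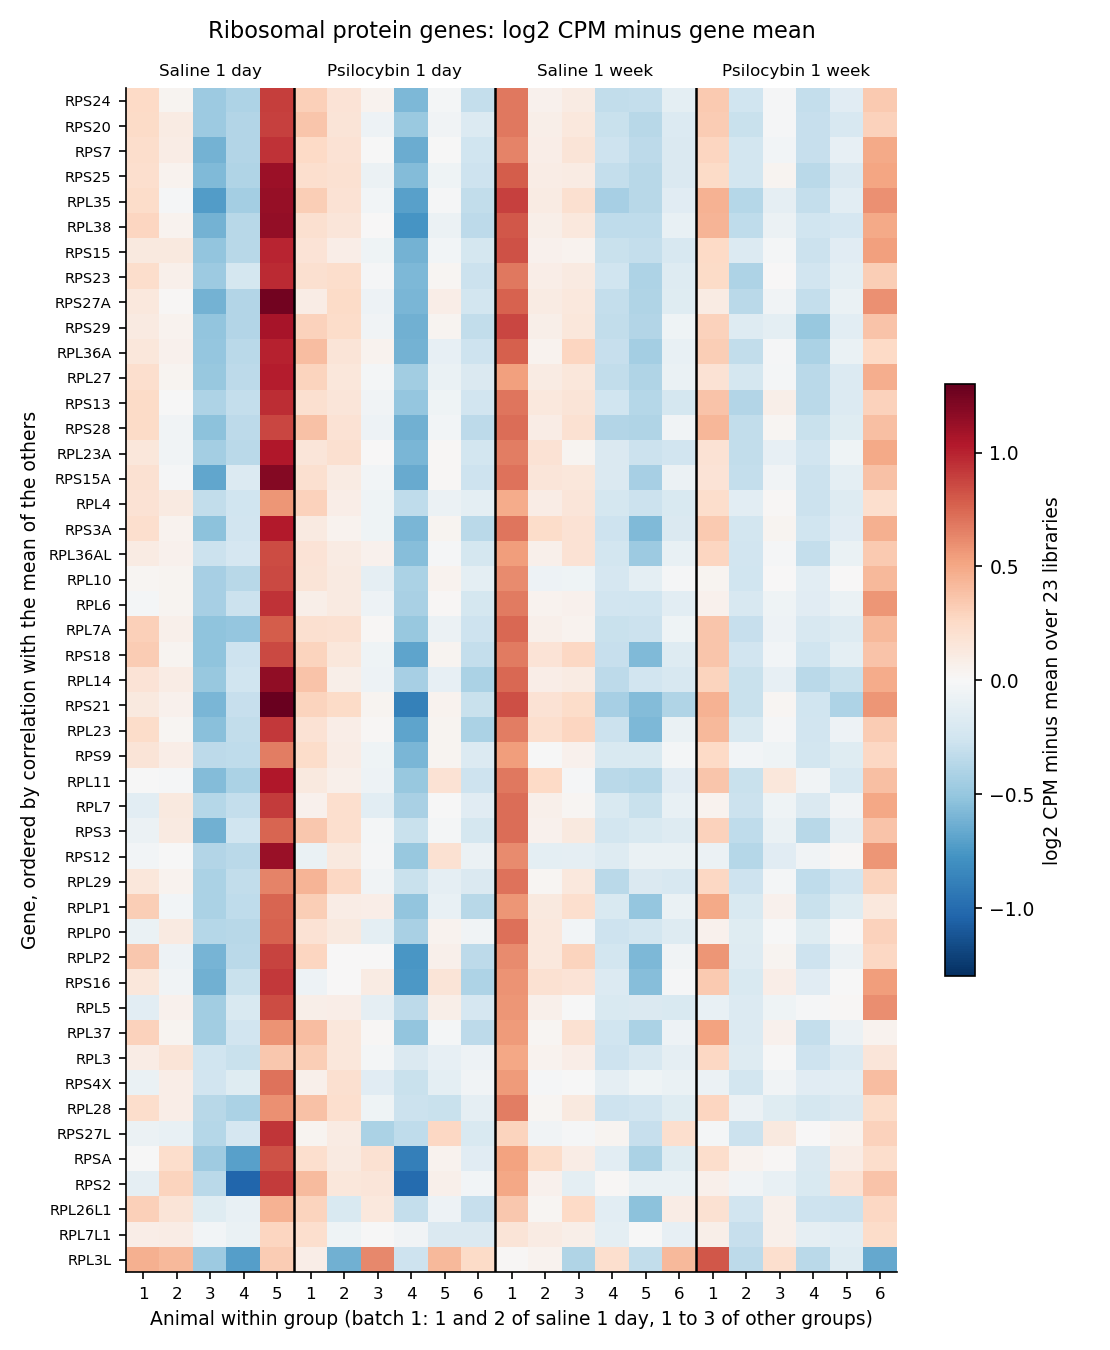
Log2 CPM of each of 47 ribosomal protein genes minus its mean over 23 libraries, with genes ordered by correlation with the others and animals ordered by treatment and time. The columns of saline animal 5 of 1 day and saline animal 1 of 1 week are above 0 for all 47 genes, that of psilocybin animal 4 of 1 day is below 0 for all 47, and the bottom line (RPL3L) departs from the rest.

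The high 1 day saline animal was the highest library for 45 of the 50 genes, the high 1 week saline animal for 4 and psilocybin animal 1 of 1 week for 1. All 50 genes were above their own mean in the high 1 day saline animal, by 0.28 to 1.28 on the log2 scale with a median of 0.90, beside a median of -0.021 over all tested genes in that animal. All 50 were also above it in the high 1 week saline animal (0.012 to 0.88) and 49 of 50 in the high psilocybin animal. At the other end, all 50 genes were below their mean in psilocybin animal 4 of 1 day (-0.999 to -0.047), and this animal was the lowest library for 28 of them. In the high 1 day saline animal the mean deviation was 0.94 for the small subunit genes and 0.79 for the large subunit genes. The genes of shortest, middle and longest exon length had median deviations of 0.97, 0.85 and 0.86 there.

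Some other measures moved with all 3 high libraries and others with only some of them. The mitochondrially encoded share of counts was highest in the high 1 day saline animal, at 13.9%, and was 12.4% in the high 1 week saline animal. It was 9.62% in the high psilocybin animal, rank 16 among 23, and was lowest in psilocybin animal 4 of 1 day, at 6.21%. The oligodendrocyte markers had mean deviations of 0.86, 0.25 and -0.12 in the 3 libraries in that order, and 0.86 was the highest of all libraries. The endothelial and mural markers were at -0.36, -0.36 and -0.32 and the neuron markers at -0.12, -0.078 and 0.054. The astrocyte markers were at 0.032, 0.10 and 0.20 and the microglia markers at -0.31, 0.30 and -0.22. Genes with under 2000 bases of exon exceeded those with 8000 or more, as a median deviation leaving out ribosomal protein genes, by 0.36, 0.46 and 0.17 in the same 3 libraries. With psilocybin animal 1 of 1 day (0.34) and psilocybin animal 1 of 1 week (0.21) these were the 5 highest of the 23 libraries and also the 5 with the highest ribosomal protein levels. Their total counts ranked 4, 9 and 19 among 23, and psilocybin animal 4 of 1 day was the deepest library. The part of these measures in the ribosomal protein levels was not tested. In bulk tissue, fewer cells of a type and less RNA per cell cannot be told apart.

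Related gene lists differed in how far they followed. The score of a list is the mean over its tested genes of log2 CPM minus the gene's mean over the libraries. For the ribosomal protein genes it was 0.87 in the high 1 day saline animal, 0.64 in the high 1 week saline animal, 0.36 in the high psilocybin animal and -0.52 in psilocybin animal 4 of 1 day. The 61 tested genes of the nuclear-encoded respiratory chain had 0.54, 0.46, 0.27 and -0.32 in the same order. The 64 mitochondrial ribosomal protein genes, which build the separate ribosome inside mitochondria, had 0.43, 0.33 and 0.21 in the 3 high libraries, and 34 proteasome genes had 0.31, 0.29 and 0.20. The 20 other genes with TOP messenger RNAs, among them the elongation factors, had 0.31, 0.27 and 0.18.

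The genes that build ribosomes did not show this order. The 37 ribosome biogenesis genes, which process ribosomal RNA and assemble the subunits, had scores of -0.082, 0.014 and -0.078 in the 3 high libraries, within a range of -0.10 to 0.12 over all libraries. The 17 genes of RNA polymerase I and 5S transcription, which make ribosomal RNA, had -0.076, -0.045 and -0.091. These scores describe single libraries and carry no test.

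**Figure D4:**
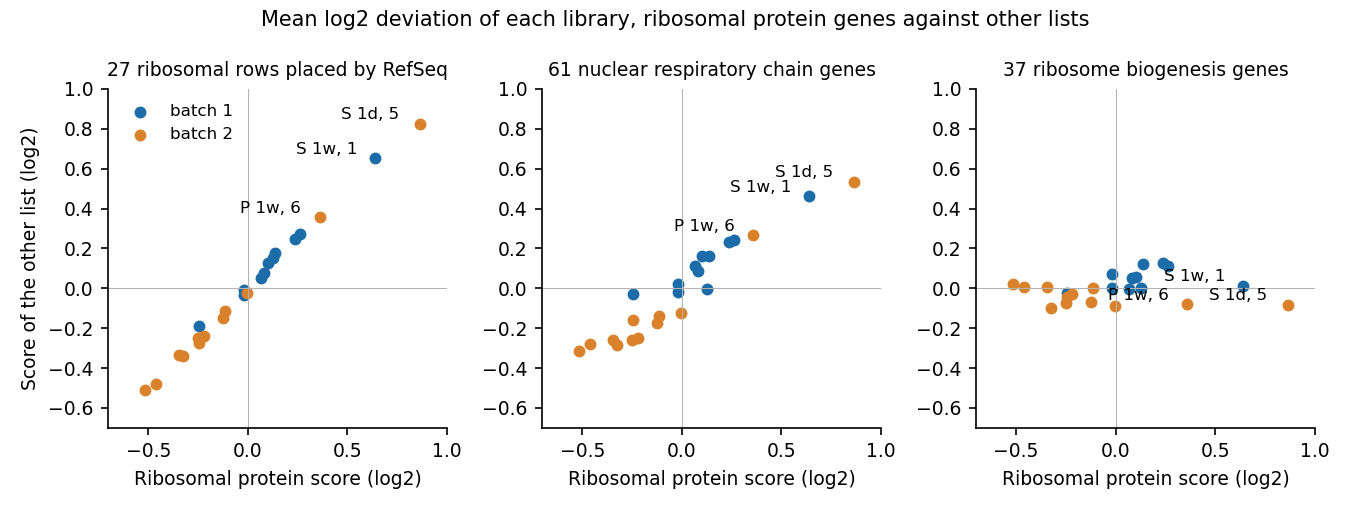
Score of each library, as the mean log2 deviation, for the ribosomal protein genes (horizontal axis) against 27 further ribosomal protein genes placed by position, 61 nuclear respiratory chain genes and 37 ribosome biogenesis genes (vertical axes), with points coloured by batch. The 3 high libraries lie highest in the left and middle panels, and the biogenesis score stays between -0.10 and 0.12.

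A set of genes outside the rule was high in the same libraries. RefSeq coordinates on Sscrofa11.1 placed 28 unnamed genes of the table at ribosomal protein genes, with at least 0.5 of each span in the other, and 27 of them passed the filter. Their score was 0.83, 0.65 and 0.36 in the 3 high libraries and -0.51 in psilocybin animal 4 of 1 day. Their median r with the mean of the chosen genes was 0.977, with a range from -0.21 to 0.99. Among all other genes tested, the 5 with the highest r all belong to this set, and they included RPL24 (0.991), RPL32 (0.991), RPL21 (0.991) and RPL37A (0.989).

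Psilocybin against saline at 1 day called none of the ribosomal protein genes. With edgeR's quasi-likelihood test and Benjamini-Hochberg adjustment, 0 of 50 genes passed an adjusted p of 0.05, beside 0% of all 15049 genes, and 0 of 50 had an unadjusted p under 0.05, beside 2.83% of all genes. DESeq2 and limma-voom also called 0 of 50, beside 0% of all genes for each. The median log2 fold change over the 50 genes was -0.23, with 49 negative and 1 positive, where the median of all genes was 0.00.

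The genes with the smallest p had values below 0 that did not pass. RPL26L1 had the smallest p, with 37.7, 34.3, 27.3, 28.5 and 41.8 CPM in saline animals 1 to 5 and a lowest, median and highest value of 24.6, 27.9 and 37.2 CPM after psilocybin. The treatments overlapped, and the log2 fold change was -0.24 ± 0.14 (SE). RPS3A, of the small subunit, was at 272, 241, 162, 197 and 476 CPM in the same saline animals and at 155, 232 and 253.2 CPM after psilocybin, a log2 fold change of -0.36 ± 0.22 (SE). RPL14, of the large subunit, was at 266, 252.1, 167, 197 and 523 CPM and at 174, 221 and 304 CPM after psilocybin, with -0.37 ± 0.23 (SE). In RPS3A and RPL14 animal 5 lay far above all psilocybin animals of that time, and animals 3 and 4 lay below the psilocybin median. The only positive value was that of RPL3L, 0.066 ± 0.30 (SE).

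The 1 day median changed sign with 1 animal. Without the high 1 day saline animal it was 0.094, with 48 of 50 genes positive. Within batch 1, which does not hold this animal, it was 0.031 with 33 genes positive, and within batch 2 it was -0.43 with 1 positive. RPL14 went from -0.37 to 0.033 without this animal, and RPS24 from -0.24 to 0.089. RPL26L1 kept a negative value, -0.12. Among the 95% intervals of the 50 genes, the lowest bound was -0.99 (RPS21) and the highest 0.69 (RPL3L).

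**Figure D5:**
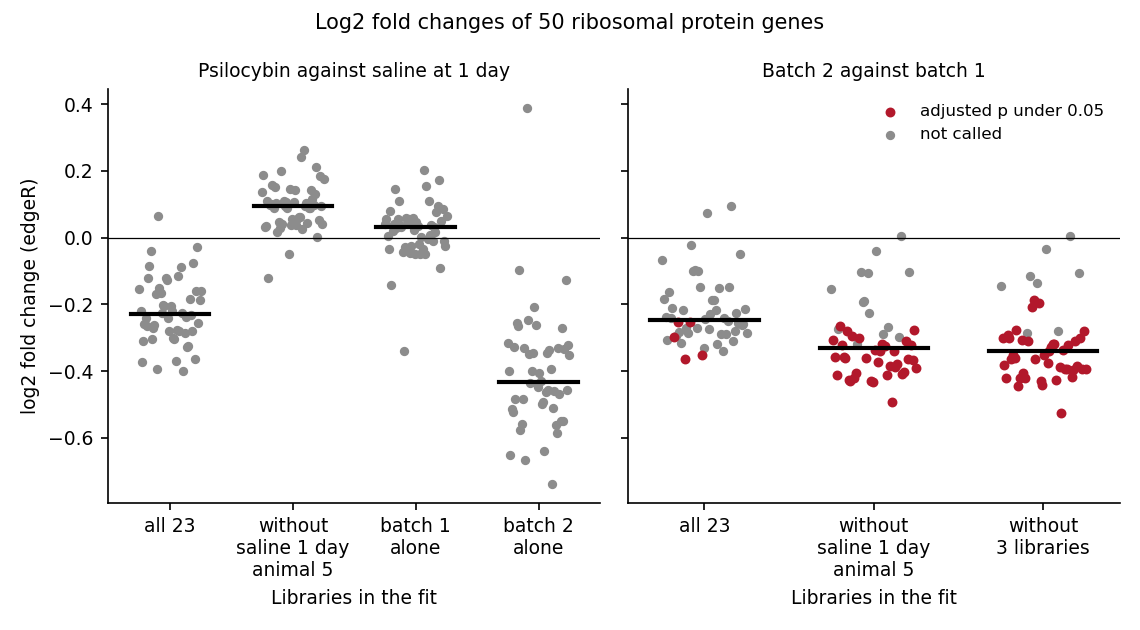
Log2 fold change of each of 50 ribosomal protein genes for psilocybin against saline at 1 day (left) and batch 2 against batch 1 (right), with columns for the libraries in the fit, black lines for medians and red points for an adjusted p under 0.05. The 1 day median lies at -0.23 with all libraries and at 0.094 without saline animal 5 of 1 day, and the red points in the batch comparison number 5, 36 and 42.

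At 1 week the values lay near 0. None of the 50 genes passed, beside 0% of all genes by edgeR's adjusted p and 1.99% by unadjusted p (0 of 50 genes), and beside 0% by DESeq2 and 0% by limma-voom. The median log2 fold change was -0.021, with 11 genes positive and 39 negative, beside 0.00 for all genes. The values closest to passing included 0.073 ± 0.21 (SE) for RPS16, 0.043 ± 0.19 for RPSA and 0.042 ± 0.22 for RPL11 above 0, and -0.086 ± 0.15 for RPS4X and -0.10 ± 0.23 for RPS29 below it. RPS16 ran from 143 to 317 CPM with a median of 224 after saline, and from 184 to 309 CPM with a median of 218 after psilocybin. RPS4X, the X-linked form of a small subunit protein, ran from 294 to 467 CPM after saline, with animal 1 highest, and from 269.5 to 418.9 CPM after psilocybin, with animal 6 highest.

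The 1 week median depended on single animals in both directions. It was 0.12 without saline animal 1, with 48 of 50 positive, and -0.14 without psilocybin animal 6, with 1 positive. Leaving out psilocybin animal 2, 3 or 4 also turned it, to 0.052, 0.015 and 0.0093. The batches were opposite, with a median of -0.31 in batch 1 (1 positive) and 0.27 in batch 2 (49 positive). It was -0.026 without the 3 libraries standing apart, with 14 positive, and with 1 surrogate variable (a term for unlabelled variation, estimated from the data) it was 0.15, with all 50 positive. No direction was read from a median this near 0.

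The difference between the effects at 1 week and at 1 day was tested as its own contrast. None of the 50 genes passed, beside 0% of all genes by edgeR, 0% by DESeq2 and 0% by limma-voom, and 0 of 50 had an unadjusted p under 0.05, beside 2.02% of all genes. The median was 0.20 with 47 genes positive and 3 negative, beside 0.00 for all genes. The smallest p values belonged to RPS3A at 0.38 ± 0.31 (SE), RPS16 at 0.35 ± 0.31 and RPS21 at 0.44 ± 0.40 above 0, and the 3 negative genes included RPL3L at -0.097 and RPS3 at -0.0066. This contrast holds the saline animals of 1 day too. Without the high 1 day saline animal its median was -0.097 with 4 positive, without the high psilocybin animal it was 0.10, without psilocybin animal 4 of 1 day it was 0.13 and without the high 1 week saline animal it was 0.34. It was -0.31 in batch 1 and 0.73 in batch 2.

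Time alone called none of the genes either. For 1 week against 1 day after saline, 0 of 50 passed by edgeR, beside 0% of all genes, by DESeq2, beside 0.00665% (1 gene), and by limma-voom, beside 0%. By unadjusted p, 0 of 50 were under 0.05, beside 2.01% of all genes. The median was -0.12 with 1 positive, and the smallest p values belonged to RPL26L1 at -0.15 ± 0.14 (SE), RPS21 at -0.31 ± 0.29 and RPL14 at -0.24 ± 0.24. Without the high 1 day saline animal the median was 0.21 with 49 positive, and without the high 1 week saline animal it was -0.25. It moved to -0.19, -0.22 and -0.21 without animals 2, 3 and 4 of 1 day and to -0.059 without animal 5 of 1 week. The batches gave 0.21 and -0.44.

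For 1 week against 1 day after psilocybin, 0 of 50 genes passed, beside 0% of all genes by edgeR, 0.00665% (1 gene) by DESeq2 and 0% by limma-voom, and 0 of 50 were under an unadjusted p of 0.05, beside 3.18%. The median was 0.082 with 45 positive, the largest being RPS16 at 0.27 ± 0.21 (SE), RPLP2 at 0.19 ± 0.20 and RPS3A at 0.19 ± 0.21. RPL3L at -0.15 and RPL3 at -0.034 were among the 5 negative genes. Without the high psilocybin animal the median was -0.050 with 10 positive. It was 0.011 without animal 4 of 1 day, 0.043 without animal 1 of 1 week and 0.15 without animal 2 of 1 week, and it was -0.12 in batch 1 and 0.26 in batch 2.

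Genes were called between the batches. Lower levels in batch 2 were called by edgeR for 5 of 50 genes (adjusted p under 0.05), and higher levels for 0. Over all genes 32.9% were called, 16.8% lower, so the share of 10% among the ribosomal protein genes was below that of the table. By unadjusted p, 12 of 50 genes (24%) were under 0.05, beside 43.6% of all genes. DESeq2 called 4 of 50, beside 34.4%, and limma-voom 7 of 50, beside 33.5%. The median log2 fold change was -0.25 with 48 genes negative, beside -0.024 for all genes.

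The 5 genes that were lower all encode large subunit proteins. The median log2 fold change was near the same in both subunits, -0.25 for the large (25 of 25 negative) and -0.24 for the small (23 of 25 negative). RPL37 ran from 150 to 249 CPM with a median of 188 in batch 1 and from 119 to 254.3 CPM with a median of 143 in batch 2, and it fell by 0.36 ± 0.11 (SE) on the log2 scale (edgeR adjusted p = 0.0157). RPL3, which lies near the peptidyl transferase center, was at 280 CPM ± 37 (SD, n = 11) and 235 CPM ± 34.4 (SD, n = 12) and fell by 0.25 ± 0.08 (edgeR adjusted p = 0.0204). The stalk protein RPLP1 was at 280 CPM ± 44.8 and 222 CPM ± 65.4 and fell by 0.35 ± 0.12 (edgeR adjusted p = 0.0312). RPL28 fell by 0.30 ± 0.11 (edgeR adjusted p = 0.0417) and RPL4 by 0.25 ± 0.10 (edgeR adjusted p = 0.0448), from 181 CPM ± 31.1 to 148 CPM ± 34.2 and from 358 CPM ± 43.5 to 303 CPM ± 65.2. The batches overlapped in each of them, and the high 1 day saline animal was the highest of batch 2 in all 5. The 2 genes above 0 were RPS27L at 0.093 ± 0.13 (SE) and RPS12 at 0.073 ± 0.15, neither of which passed.

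The number called between batches turned on which libraries were in the fit. Without the high 1 day saline animal, 36 of 50 genes (72%) were lower in batch 2 and 0 higher, beside 37.4% of all genes called and 17.6% lower. Without the 3 libraries standing apart, 42 of 50 (84%) were lower and 0 higher, beside 38.4% called and 18.9% lower. RPS24 then had a log2 fold change of -0.39 (edgeR adjusted p = 0.000586) and RPS21 of -0.52 (edgeR adjusted p = 0.000441), where with all libraries the values were -0.29 and -0.34 and did not pass. Among psilocybin animals, leaving out 1 of 1 week gave 0 called, 6 of 1 week gave 9, 1 of 1 day gave 1, 4 or 6 of 1 day or 4 of 1 week gave 2, and 5 of 1 day or 5 of 1 week gave 3. Among saline animals, leaving out 1 of 1 week gave 1, 3 of 1 day or 5 of 1 week gave 2, and 1 or 4 of 1 day or 4 of 1 week gave 3. The share of all genes called in each of these single fits is not given here. Batch 2 also held the lowest libraries: the median share of counts was 0.856% there, with a mean of 0.938% ± 0.264 (SD, n = 12) beside 1.05% ± 0.144 (SD, n = 11) in batch 1. Leaving out 3 libraries that stood apart was chosen with their values known.

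Marker genes of several cell types were called between the batches. Beside 32.9% of all genes called and 16.8% lower, of 9 microglia markers, 8 were lower and 0 higher in batch 2 by the same test, with a median log2 fold change of -0.49, and 3 of 4 tested blood genes were lower, with a median of -1.40. Among 8 endothelial and mural markers 2 were higher and 0 lower, among 9 astrocyte markers 4 were higher and 1 lower, and among 12 neuron markers 3 were higher and 3 lower. The mitochondrially encoded genes had a median of -0.26, with 2 of 13 lower. Without the 3 libraries standing apart, 38.4% of all genes were called and 18.9% were lower. In that fit 7 of 9 microglia markers, 3 of 4 blood genes and 11 of 13 mitochondrially encoded genes were lower. Of 8 endothelial and mural markers, 5 were higher. The part of these in the ribosomal protein values was not tested.

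The wider pathway showed calls only between batches. In the treatment and time comparisons 0 genes of the lists below were called. Between batches, 27 of 61 nuclear respiratory chain genes were lower and 0 higher, among them COX6A2 at -0.39 and NDUFA10 at -0.36. Of 64 mitochondrial ribosomal protein genes 25 were lower and 1 higher, among them MRPL55 at -0.42 and MRPS9 at -0.24. Of 34 proteasome genes, 9 were lower and 1 higher. These shares stand beside 32.9% of all genes called and 16.8% lower, and none is a test of a list. Leaving out the 3 libraries standing apart, 52 of 61 respiratory chain genes, 45 of 64 mitochondrial ribosomal protein genes and 16 of 34 proteasome genes were lower. In that fit 18.9% of all genes were lower and 38.4% were called in either direction.

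The upstream genes went both ways, and the counts here too stand beside 32.9% of all genes called and 16.8% lower. Of 15 kinases and binding proteins of ribosomal protein messenger RNA translation, 5 were higher and 4 lower in batch 2. LARP1, the binding protein of TOP messenger RNAs, was higher by 0.90, the kinase RPS6KA3 was higher by 0.33, the S6 kinase RPS6KB2 was lower at -0.42, and EIF4EBP1, a translation repressor under mTOR, was lower at -0.45. Of 37 biogenesis genes 1 was higher (TSR1, 0.15) and 13 lower, among them DKC1 at -0.32 and NOP16 at -0.33. Of 17 genes for making ribosomal RNA 2 were higher, POLR1A at 0.43 and RRN3 at 0.23, and 7 lower, among them TAF1C at -0.39. Of 20 other TOP genes, 1 was higher (the import receptor IPO7, 0.32) and 4 lower, among them EIF3F at -0.36 and EEF1D at -0.23. Without the 3 libraries standing apart, 5 kinases and binding proteins were higher and 3 lower, and 2 biogenesis genes were higher and 14 lower. Of the genes for making ribosomal RNA 2 were higher and 9 lower, and of the other TOP genes 1 and 8. In that fit 38.4% of all genes were called and 18.9% were lower.

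At 1 day after psilocybin the same lists gave medians without calls. The median log2 fold change was -0.20 for the nuclear respiratory chain (57 of 61 negative), -0.099 for the mitochondrial ribosomal proteins (58 of 64 negative), -0.088 for the proteasome (29 of 34 negative) and -0.047 for the other TOP genes (11 of 20 negative). It was 0.00 for the biogenesis genes, with 19 positive and 18 negative, and 0.010 for the kinases and binding proteins. The 27 genes placed by position had -0.21 with all 27 negative. These values share the saline animals of 1 day with the ribosomal protein values above, the high one among them. Without that animal the medians were -0.0091 for the respiratory chain (34 of 61 negative), 0.023 for the mitochondrial ribosomal proteins (26 of 64 negative), -0.0082 for the proteasome (20 of 34 negative), 0.067 for the other TOP genes (5 of 20 negative), -0.017 for the biogenesis genes and 0.016 for the kinases and binding proteins. The genes placed by position then had 0.098, with 25 of 27 positive.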

How the data were processed

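The authors deposited expected counts per Ensembl gene, with exon length in bases as another quantity. Per the file headers, only primary alignments with both ends mapped were counted, strand was ignored and reads overlapping several genes were given in fractions. Per the submitters' processing notes, fastp 0.20.0, STAR 2.6c, featureCounts 1.5.1 and build susScr11 were used. Of the deposited counts, 72.2% were whole. They were rounded for the models, which changed a library's total by at most 0.001%.

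Symbols came from a table of Ensembl names, matching 14857 of 25880 identifiers. Genes were kept with filterByExpr (minimum count 10, minimum total 15) and scaled by TMM. The main test was edgeR 4.0.16's robust two-sided quasi-likelihood F test in R 4.3.3, with terms for group and batch, in all 23 libraries, adjusted by Benjamini-Hochberg over 15049 genes. Log2 CPM used a prior count of 2. Alternatives were DESeq2 1.42.0, limma-voom (limma 3.58.1), 1 surrogate variable (sva 3.50.0), other scalings, filters and fits, each batch, and each animal left out. No pair of libraries of the same group agreed within sampling noise.

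Members and lists were chosen with earlier results of these data known. Genes named are the 3 with the smallest p per direction in each comparison, the 5 highest and 5 lowest per length, those failing the filter, RPSA and the stalk proteins, like-named paralogs, and the 4 most and 4 least correlated. RPS21, RPL35 and RPL4 were also named after their values were seen. Some genes that these rules would name are not reported here, and 3 of the chosen genes are left out of the plots of single genes and of the screen for outlying values.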

Additional observations from a re-analysis of the deposited data

Results flagged for a closer look

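Within a group, a value was singled out when its gap to the nearest other animal exceeded Dixon's 95% critical share of the group's range (0.71 for 5 animals, 0.625 for 6). This held for 41 of 196 groups of values, where chance gives about 1 in 20 for independent values. The genes moved together, so they are not independent. All 41 were high values, and they came from 4 libraries.

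Animal 5 of saline at 1 day gave 13 of them: in CPM, RPL10 at 381, RPL11 at 376, RPL14 at 523, RPL23A at 500.1, RPL36AL at 116, RPL5 at 432, RPL6 at 740.1, RPS12 at 402, RPS21 at 109, RPS27A at 208, RPS27L at 24.2, RPS29 at 251.9 and RPS4X at 520.3. RPL5 and RPL11 bind 5S ribosomal RNA together, and RPS27A and RPS29 belong to the small subunit.

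Animal 1 of saline at 1 week gave 21: its share of counts, 1.42%, and, in CPM, RPL10 at 322, RPL14 at 395, RPL28 at 253.1, RPL29 at 147, RPL38 at 168, RPL5 at 358, RPL6 at 617, RPL7 at 481, RPL7A at 769, RPLP0 at 473, RPS12 at 282, RPS15 at 364, RPS2 at 537, RPS24 at 354, RPS25 at 220.4, RPS27A at 148, RPS29 at 219, RPS3 at 639, RPS4X at 467 and RPS9 at 245.2.

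Animal 6 of psilocybin at 1 week gave 6, with RPL10 at 281, RPL5 at 364, RPL6 at 576, RPL7 at 412, RPS12 at 275 and RPS4X at 418.9 CPM. Animal 1 of psilocybin at 1 week gave 1, RPL37 at 244 CPM.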

How the results depend on the processing

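In the 5 treatment and time comparisons 0 of 50 genes were called under every alternative run. The medians were less stable. With batch 1 alone, the medians at 1 day, at 1 week, for their difference, for time after saline and for time after psilocybin were 0.031, -0.31, -0.31, 0.21 and -0.12. With batch 2 alone those at 1 week, for the difference and for time after saline were 0.27, 0.73 and -0.44. Without the 3 libraries standing apart the 1 day median was 0.094, that of the difference -0.12, and those for time after saline and after psilocybin 0.077 and -0.048. With 1 surrogate variable the 1 day median was -0.0026, the 1 week median 0.15, and those for time after saline and after psilocybin -0.0024 and 0.14. Leaving out 1 animal each, the medians ranged from -0.33 to 0.094 at 1 day, -0.14 to 0.12 at 1 week, -0.097 to 0.34 for the difference, -0.25 to 0.21 and -0.050 to 0.15 for time after saline and after psilocybin, and -0.33 to -0.16 between batches.

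Between batches, 3 genes were called with RLE size factors, 2 without a filter and 0 with 1 surrogate variable. The count was 42 without the 3 libraries, beside 38.4% of all genes, and 0 to 36 with 1 animal left out. The 36 stood beside 37.4% of all genes called, and the shares for the other fits named here are not given. The surrogate variable turned the batch median to 0.28, with RPL28 at 0.17, RPL3 at 0.079, RPL37 at 0.097, RPL4 at 0.12 and RPLP1 at 0.13. The cause was not tested. The mean share of counts with 1 animal left out ranged from 0.898% to 1.12% for saline and 0.909% to 0.983% for psilocybin at 1 day, and from 0.911% to 1.04% and 0.935% to 1.02% at 1 week. Other scalings moved no median's sign. No paired analysis was possible because the groups share no animal numbers. Depth limits RPL3L, with 7 to 29 counts per library. The main p-values set each difference against the spread between these animals, estimated in 1 fit over all 23 libraries, with 5 or 6 per group.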

Other observations

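The 40 genes outside the rule with the highest correlation to the mean of the ribosomal protein genes (Pearson r over 23 libraries, group and batch means removed) included 19 placed by position at ribosomal protein genes. Of the other 21, the spans of 6 overlap a ribosomal protein gene of the table or of RefSeq: TLCD1 with RPL23A, TBC1D8 with RPL31, MTIF2 with RPS27A, CABLES2 with RPS21, FLT3LG with RPL13A and an unnamed gene with RPL12. Over all other tested genes 48 of 14972 (0.321%) overlap one. The remaining named genes of the 40 included KXD1 of the lysosome-positioning complex BORC (0.987), the histone gene H3-3A (0.981), the elongation factor EEF1B2 (0.980), LAMTOR2, which anchors mTORC1 to lysosomes (0.976), and the respiratory chain genes COX7A2 (0.971), COX5B (0.970) and NDUFA2 (0.970). These points share libraries and scaling.

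At the position of RPL13A the table holds several genes. RefSeq places RPL13A on chromosome 6 at 54551772 to 54568752 (Sscrofa11.1) and lists FLT3LG as a synonym. The gene of the table placed there by overlap, at 54552624 to 54563806, averaged 11.2 CPM (5.97 to 17.3) and had an r of -0.21 with the ribosomal protein genes. The gene named FLT3LG in the table, at 54564818 to 54572616, averaged 380 CPM (257.9 to 717) with an r of 0.98.

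RPL15, also placed by position, had the highest level of that set, 513 CPM, and an r of 0.61. In the batch comparison 6 of the 27 tested genes placed by position were lower by edgeR's test. They included RPL13, RPL18, RPL27A and RPS6, the target of the S6 kinases. The 6 also hold the gene placed at RPL13A, whose r was -0.21 and whose identity is uncertain. The 6 of 27 stand beside 16.8% of all genes lower. Without the high 1 day saline animal 22 of 27 were lower, beside 17.6%, and without the 3 libraries standing apart 25 of 27, beside 18.9%.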
